A study of Arabidopsis thaliana with 2 samples.

Results

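The Aux/IAA repressors and the auxin response factors (ARFs) of Arabidopsis thaliana were examined for peaks of the clock protein CCA1. The members were 43 genes listed by locus identifier, 29 Aux/IAA genes and 14 ARF genes, out of 27444 nuclear protein-coding genes. A gene was called when a peak overlapped it, or the 1000 bp on either side of it, by at least 1 bp. It was called in common when an IonPGM and an Illumina peak in that window also overlapped each other.

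The data were 2 chromatin immunoprecipitation sequencing (ChIP-seq) libraries, a method that sequences the DNA to which a chosen protein is cross-linked. Both came from whole Col-0 seedlings of 14 days, mutant in CCA1 and its relative LHY (cca1 lhy), that carry FLAG-tagged CCA1 driven by the promoter of CCA1 (CCA1pro:CCA1-FLAG), precipitated with an anti-FLAG antibody. Growth was at 22 °C on MS medium with 2% sucrose in 12 h light and 12 h dark, and tissue was fixed 1 h after lights on. An Ion PGM sequencer read 1 library and an Illumina GAII read the other, so no value has a replicate error. Whether they shared the same precipitated DNA is not stated, and no library from plants without the tag was used here. The IonPGM list held 2901 peaks and the Illumina list 2954. Each peak has 1 score of the authors' peak caller, used here to rank peaks within a list and written as a percentile from 0 (lowest) to 100 (highest). Read depth is unknown, so a gene without a peak is a gene without a call at that depth, not a gene shown to be free of CCA1.

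Auxin acts by removing repressors. ARF proteins bind auxin response elements in DNA. Aux/IAA proteins bind to ARFs and recruit TOPLESS corepressors, and auxin joins the Aux/IAA proteins to the F-box receptors TIR1 and AFB, which mark them for destruction. Many Aux/IAA genes are themselves rapidly induced by auxin, which closes a feedback loop. CCA1 is a MYB-type factor of the circadian clock that is most abundant around dawn and mainly represses its targets, and responses of seedlings to auxin are known to vary with the time of day.

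Both families held genes with CCA1 peaks, but most members had none, and 5 members had peaks of both lists at the same place: IAA1, IAA3, IAA4, ARF2 and ARF6. In the IonPGM list 4 of 29 Aux/IAA genes (13.8%) and 4 of 14 ARF genes (28.6%) had a peak, against 12.1% of all protein-coding genes. In the Illumina list the counts were 5 Aux/IAA genes (17.2%) and 5 ARF genes (35.7%), against 12.7% of all genes. Overlapping peaks of both lists were found at 3 Aux/IAA genes (10.3%) and 2 ARF genes (14.3%), against 6.56% of all genes. In this window the Aux/IAA shares lay 1.71 and 4.52 percentage points above the background of the IonPGM and the Illumina list, and the ARF shares lay farther above it, on counts of 2 to 5 genes.

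The order of the families changed with the gene alone, without the 1000 bp. Aux/IAA genes then had an IonPGM peak in 3 cases (10.3%), an Illumina peak in 5 (17.2%) and overlapping peaks in 3 (10.3%), against 6.35%, 6.31% and 2.96% of all genes. ARF genes had them in 3 (21.4%), 2 (14.3%) and 1 (7.14%). On these counts of 1 to 5 genes, Aux/IAA genes stood above ARF genes for Illumina and overlapping peaks, and below them for IonPGM peaks. The ARF2 pair was not counted here because it lay 421 and 423 bp outside the gene. The order was not tested.

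A peak of either list was present at 6 Aux/IAA genes (20.7%) and 7 ARF genes (50%), against 17.7% of all protein-coding genes. When each peak was given to its nearest protein-coding gene, ARF11 and ARF18 lost their call: 3 ARF genes (21.4%) then had an Illumina peak, against 9.18% of all genes, and 5 (35.7%) a peak of either list, against 12.9%. The Aux/IAA counts stayed at 5 and 6. The families differ in length, and a longer window has more room for a peak. Every ARF gene was at least 3069 bp long, with a median of 4633 bp, while the median was 1740 bp for Aux/IAA genes and 2078 bp for all genes. Among the 7014 protein-coding genes of at least 3000 bp, a length chosen after the values were seen, 13.7% had an IonPGM peak, 15.5% an Illumina peak, 7.6% overlapping peaks and 21.1% a peak of either list. The part of gene length in the ARF counts was not tested, and the median ARF gene is longer than this limit.

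Per length of window the families stood closer together. Aux/IAA windows held 3.57 IonPGM and 4.46 Illumina peaks per 100 kb, and ARF windows held 4.45 and 7.78. For all protein-coding genes the values were 3.04 and 3.105. These numbers rest on 9 peaks at Aux/IAA genes and 11 at ARF genes. With 1 library per sequencer, and since genes of a family are not replicates, the difference between the families was not tested.

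**Figure D1:**
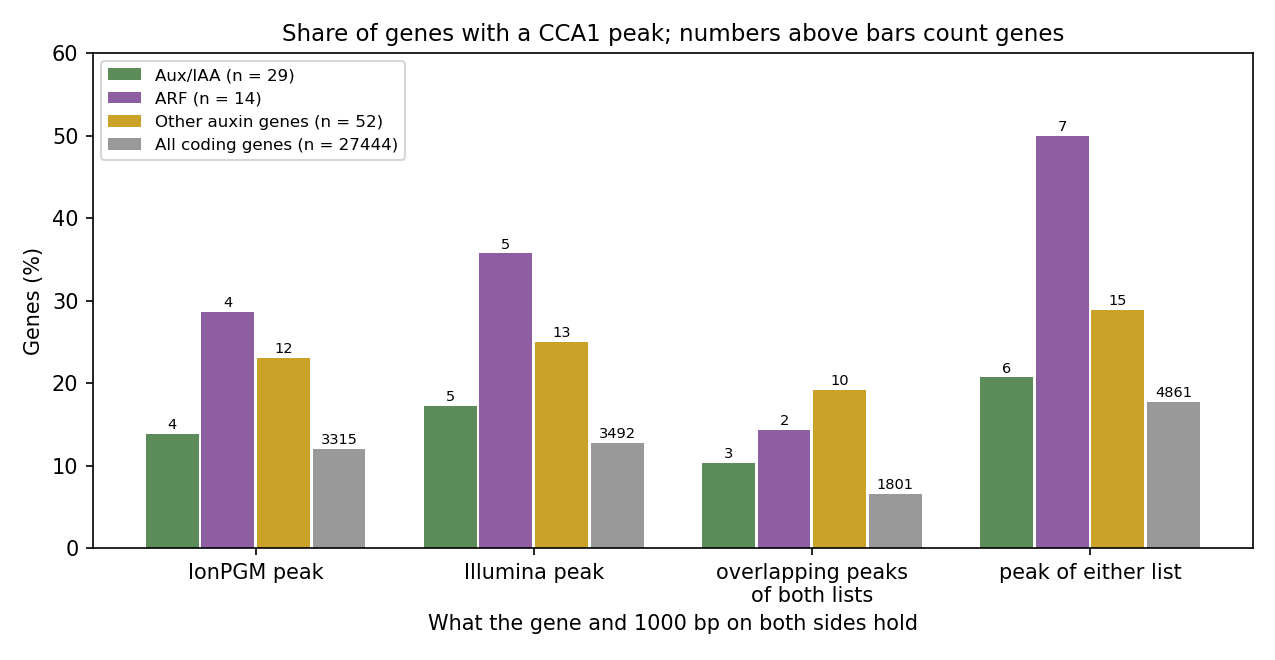
Share of genes, in percent, with an IonPGM peak, an Illumina peak, overlapping peaks of both lists or a peak of either list in the gene and 1000 bp on both sides, for Aux/IAA genes, ARF genes, the other auxin genes and all protein-coding genes. The number above each bar counts genes: the ARF bars stand highest in each list, with 4, 5 and 7 genes for IonPGM, Illumina and either list, while for overlapping peaks the other auxin genes stand highest with 10.

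Among the repressors, the highest-ranked peaks lay at IAA4 (AT5G43700), an auxin-inducible member closely related to IAA3. The IonPGM peak at chromosome 5: 17550020 to 17550334 had a score of 51.08 and rank 196, at percentile 93.3. The Illumina peak at 17550101 to 17550369 had a score of 20.18 and rank 959, at percentile 67.6. Both lay across the end of the gene with the lower coordinate, and no other protein-coding gene was within 1000 bp of either. The peaks had 234 bp in common, and by mean percentile the pair stood at place 364 among all 1532 overlapping pairs.

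At IAA3 (AT1G04240), also called SHY2, which balances cell division and differentiation in the root meristem, peaks of both lists lay across the end with the higher coordinate. The IonPGM peak at chromosome 1: 1129516 to 1129757 had a score of 20.2 and percentile 66.6, and the Illumina peak at 1129468 to 1129742 had a score of 15.03 and percentile 46.5. This pair stood at place 860, and the neighbour AT1G04230 lay 727 bp from the IonPGM and 679 bp from the Illumina peak. IAA17 (AXR3), the next member along the chromosome at 6388 bp from IAA3, had no peak. IAA3 was therefore called in both lists with a pair near the middle of all pairs.

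IAA1 (AT4G14560), a repressor known from the dominant axr5 mutant, had the lowest-ranked pair of the 5 members. Its IonPGM peak at chromosome 4: 8360828 to 8361018 had a score of 12.21 and percentile 31.2, and its Illumina peak at 8360766 to 8361186 had a score of 10.62 and percentile 16.6. The Illumina peak was 421 bp wide, the widest at any member, and held the whole IonPGM peak of 191 bp, the narrowest. The pair stood at place 1413. The overlap was 45.4% of the Illumina peak, so IAA1 was not called in common when at least 50% of both peaks had to overlap, a rule that called 5.84% of all genes. Both peaks lay across the lower end of the gene, and AARE, an acylamino acid-releasing enzyme gene, was 930 bp from the Illumina peak.

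The remaining 3 Aux/IAA genes with a peak had 1 each, in a single list and below percentile 50. IAA8 (AT2G22670) had an Illumina peak at chromosome 2: 9636277 to 9636507 with percentile 34.2, at a score of 13.04 that 90 peaks of that list share. Its close relative IAA9 (AT5G65670) had an Illumina peak at chromosome 5: 26253193 to 26253430 with percentile 13.0. Both peaks lay across the lower end of the gene, and the IAA9 peak also overlapped the non-coding gene AT5G09425. IAA19 (AT3G15540), also called MSG2, a partner of ARF7 in bending of the hypocotyl, had an IonPGM peak at chromosome 3: 5263735 to 5263987, 13 bp outside the lower end, with percentile 30.2.

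The other 23 Aux/IAA genes had no peak of either list in the window. They were IAA2, IAA5, IAA6, IAA7, IAA10 to IAA18, IAA20, IAA26 to IAA34 in the order of the family. Among them are the repressors known from dominant auxin-resistant mutants, IAA7 (AXR2), IAA14 (SLR) and IAA17 (AXR3), the embryo patterning repressor IAA12 (BDL), and IAA29, which is induced in shade. So are IAA20, IAA30, IAA32, IAA33 and IAA34, which lack the conserved degron through which auxin destroys the other Aux/IAA proteins.

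**Figure D2:**
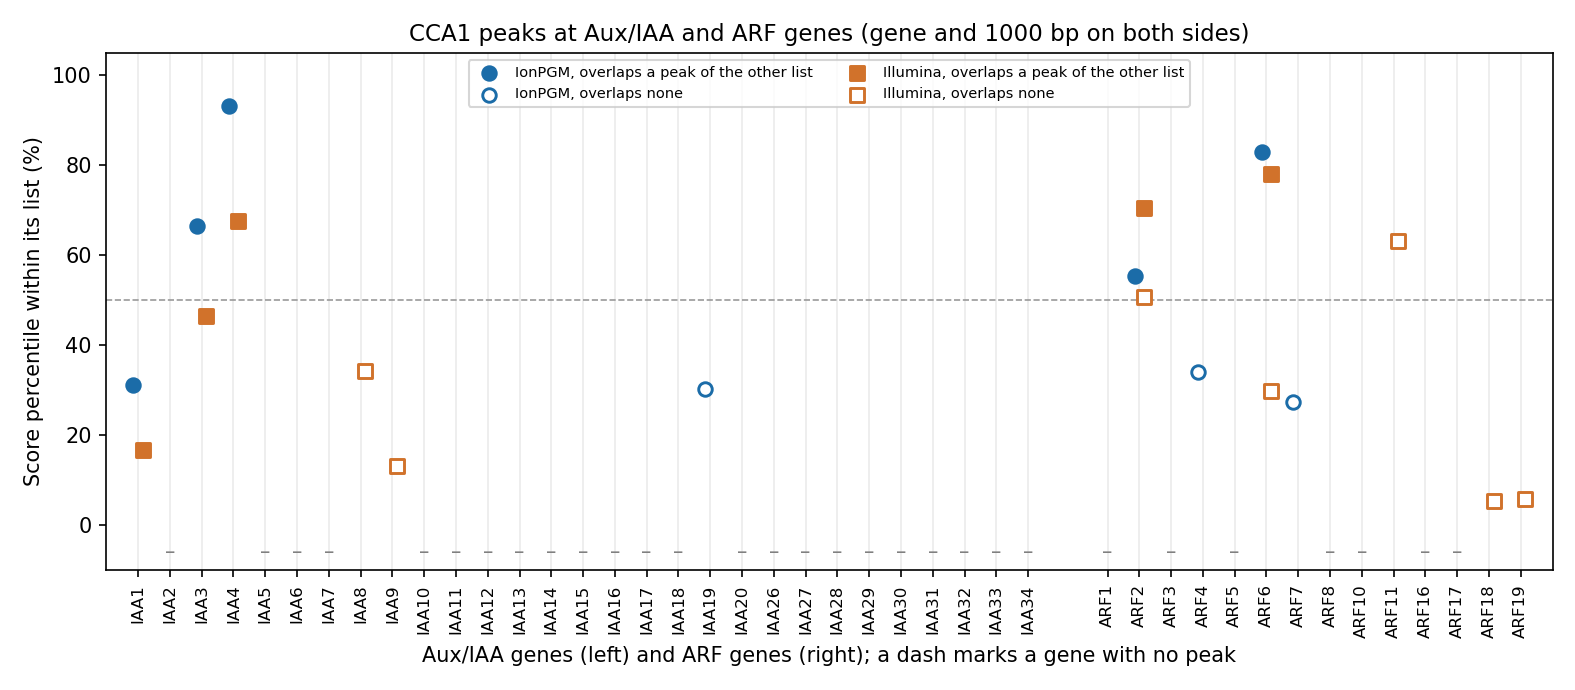
Score percentile of each peak within its own list, in percent, for all 29 Aux/IAA genes on the left and all 14 ARF genes on the right. Circles are IonPGM and squares Illumina peaks, filled where the peak overlaps a peak of the other list; dashes mark the 23 Aux/IAA and 7 ARF genes with no peak, and the dashed line marks percentile 50. The IonPGM peak at IAA4 stands highest, at 93.3.

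Among the ARFs the highest-ranked pair lay at ARF6 (AT1G30330), an activator that acts with ARF8 in flower maturation and promotes hypocotyl growth. The IonPGM peak at chromosome 1: 10685637 to 10685907 had a score of 29.96 and rank 497, at percentile 82.9. The Illumina peak at 10685660 to 10685914 had a score of 24.46 and rank 646, at percentile 78.2. The pair had 248 bp in common, which is 91.5% of the IonPGM and 97.3% of the Illumina peak, and lay across the lower end of the gene at place 362 among all pairs. It thus stood beside that of IAA4, at place 364. A separate Illumina peak at 10684873 to 10685227, percentile 29.8, lay 594 bp outside the same end, and no other protein-coding gene was within 1000 bp of these 3 peaks. ARF8, the closest relative of ARF6, had no peak.

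At ARF2 (AT5G62000), a repressor of growth that limits seed and organ size, the pair lay outside the gene. The IonPGM peak at chromosome 5: 24909461 to 24909769 had a score of 16.67 and percentile 55.3, and the Illumina peak at 24909484 to 24909767 had a score of 21.08 and percentile 70.4. They lay 421 and 423 bp beyond the lower end, and the non-coding gene AT5G09045 overlaps both. The Illumina peak lay wholly within the IonPGM peak, and the pair stood at place 714. A second Illumina peak at 24915832 to 24916105, percentile 50.6, lay 436 bp beyond the higher end of ARF2 and wholly within HSFB2A, a heat shock factor gene, so that it cannot be assigned to ARF2.

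The other 5 ARF genes with a peak had 1 peak each, in a single list. At ARF7 (AT5G20730), also called NPH4, an activator of lateral root formation and phototropism, the IonPGM peak at chromosome 5: 7016600 to 7016855 had percentile 27.4 and lay inside the gene, 155 bp from its lower end, but also across an end of CPN20, a chloroplast co-chaperonin gene. At ARF19 (AT1G19220), which overlaps with ARF7 in function, the Illumina peak at chromosome 1: 6627700 to 6628085 had percentile 5.67 and lay inside the gene, 17 bp from its lower end and 11 bp from AT1G19210. These related activators therefore had a peak near the lower end in different lists, both low in rank.

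At ARF4 (AT5G60450), which specifies the lower side of the leaf together with ARF3, the IonPGM peak at chromosome 5: 24312580 to 24312784 had percentile 34.0 and lay inside the gene, ending at its last base. ARF11 (AT2G46530) and its close relative ARF18 (AT3G61830) each had an Illumina peak outside the gene. That of ARF11 at chromosome 2: 19109151 to 19109410 had percentile 63.2 and was 664 bp from the gene but 102 bp from AT2G46535. That of ARF18 at chromosome 3: 22887106 to 22887378 had percentile 5.16 and was 510 bp from the gene, while it covered the whole of AT3G61829. Both peaks were thus nearer to another gene than to the ARF.

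ARF1, ARF3, ARF5, ARF8, ARF10, ARF16 and ARF17 had no peak of either list. ARF5 (MONOPTEROS) directs the embryonic root and vasculature, ARF3 (ETTIN) shapes the gynoecium, and ARF10, ARF16 and ARF17 form a separate class controlled by a microRNA. Of the 5 activator ARFs (ARF5, ARF6, ARF7, ARF8 and ARF19) 3 had a peak of either list (60%), and of the 9 other ARFs 4 did (44.4%). The share was 17.7% of all protein-coding genes and 21.1% of those of at least 3000 bp. Overlapping peaks were at 1 gene of each group, ARF6 and ARF2, and the difference was not tested.

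**Figure D3:**
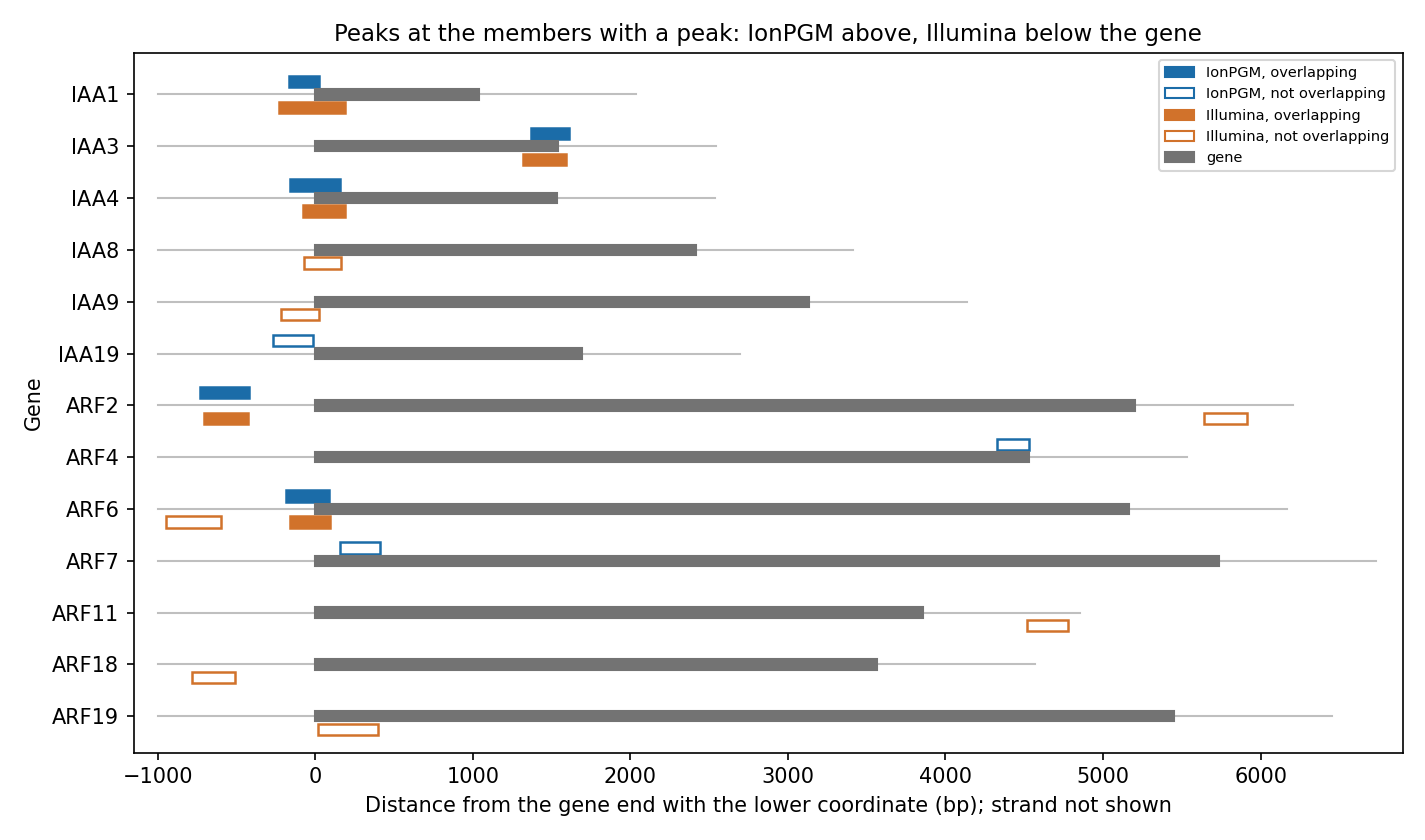
Maps of the 13 members with a peak, in bp from the gene end with the lower coordinate; the grey bar is the gene, the thin line adds 1000 bp on both sides, IonPGM peaks are drawn above and Illumina peaks below. Filled peaks overlap a peak of the other list. At IAA1, IAA3, IAA4 and ARF6 the filled peaks of both lists lie across a gene end, and at ARF2 they lie outside.

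The families differed in where their peaks lay. At Aux/IAA genes 8 of 9 peaks lay across a gene end, 1 lay outside and 0 inside. At ARF genes 2 of 11 lay across an end, 6 outside and 3 inside. Some of these labels turn on a few bp. The inside peaks at ARF4 and ARF19 lay 0 and 17 bp from a gene end. The outside peak at IAA19 lay 13 bp from one. Of the outside ARF peaks, those at ARF11 and ARF18 and the second at ARF2 were nearer to, or within, another gene. Over all combinations of a protein-coding gene and a peak in its window, 23.3% of 3654 in the IonPGM list and 30.3% of 3736 in the Illumina list lay across an end, 48.9% and 52.0% lay outside, and 27.6% and 17.5% lay inside. Both peaks of a pair count here: 6 of the 9 Aux/IAA peaks belong to 3 pairs, and 4 of the 11 ARF peaks to 2 pairs. The gene table used here gives no strand, so these ends could not be named as start or end of transcription. The difference was not tested.

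The pairs at members resembled other pairs in fit. Their median overlap was 234 bp, as for all 1532 pairs, and their median distance between peak centres was 31.5 bp, against 35.5 bp. The median of the mean percentile was 62.8 over the 5 pairs and 60.1 over the 1264 pairs at any protein-coding gene. The 3 Aux/IAA pairs ran from 23.9 to 80.4, and the 2 ARF pairs stood at 62.8 and 80.5. The members' pairs thus lay around the middle of all pairs, with IAA4 and ARF6 in the upper part.

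Peaks without a partner ranked lower than paired peaks in the whole of both lists, with median percentiles of 35.7 against 63.4 (IonPGM) and 36.1 against 65.4 (Illumina), and the member peaks followed this. In the whole lists 64.3% (IonPGM) and 65.5% (Illumina) of paired peaks stood above percentile 50, and 34.4% and 33.5% of peaks without a partner. Of the 10 member peaks that overlapped a peak of the other list 7 stood above percentile 50, and of the 10 that did not 2 did, at ARF2 and ARF11. As both of these lay nearer to a neighbouring gene, no unpaired peak above percentile 50 was nearest to a member. The median percentile of all peaks in member windows was 44.6 in the IonPGM list and 40.3 in the Illumina list, against 47.4 and 48.1 for peaks in the window of any protein-coding gene.

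**Figure D4:**
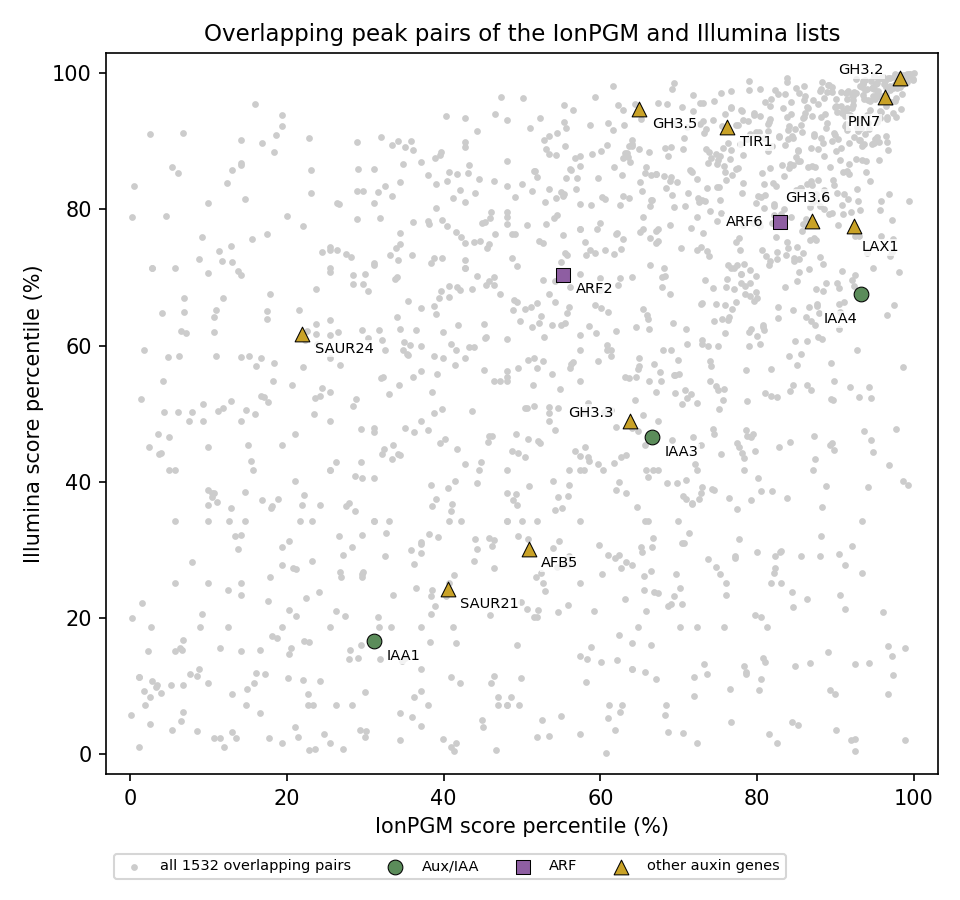
Score percentile in the IonPGM list (x axis, percent) against that in the Illumina list (y axis, percent) for each overlapping pair of peaks; grey points are all 1532 pairs, and larger symbols mark pairs at Aux/IAA, ARF and other auxin genes. IAA4 and ARF6 lie toward the upper right, IAA1 toward the lower left, and GH3.2 and PIN7 in the upper right corner.

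Close relatives were compared by 15 sister pairs known from the family trees, a list written after the values were seen. Both genes had a peak in 4 pairs (IAA3 and IAA4, IAA8 and IAA9, ARF7 and ARF19, ARF11 and ARF18), 1 gene had a peak in 4 pairs (IAA1 but not IAA2, IAA19 but not IAA6, ARF4 but not ARF3, ARF6 but not ARF8), and neither had one in 7. IAA3 and IAA4 were the sisters with overlapping peaks of both lists at each gene, although at opposite ends by coordinate. No peak lay in the windows of 2 members. Of all protein-coding genes 17.7% had a peak of either list, and no share was counted for pairs of relatives. The peaks at ARF11 and ARF18 lay nearer to another gene. Those at ARF7 and ARF19 were in different lists, at percentiles 27.4 and 5.67, and those at IAA8 and IAA9 in the Illumina list alone. Whether relatives share peaks was not tested.

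Other parts of the auxin pathway were followed with a selection of 52 genes for receptors, synthesis, transport, conjugation and breakdown, and SAUR proteins. The selection was written with earlier results of these data known, so its shares are a description only. A peak was found at 12 of them in the IonPGM list (23.1%) and at 13 in the Illumina list (25%), and overlapping peaks at 10 (19.2%). The backgrounds were those given above, 12.1%, 12.7% and 6.56%. Overlapping peaks were thus counted at a larger share of these genes than of either family. With the gene alone they were counted at 4 (7.69%), below the 10.3% of Aux/IAA genes, so that order holds for the 1000 bp window, and the difference was not tested.

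By share, the conjugation and breakdown group had the most overlapping peaks. They were at 4 of its 9 genes (44.4%), against 6.56% of all protein-coding genes. For Illumina peaks the receptor group stood higher, at 50% against 44.4%. All 4 genes with overlapping peaks were GH3 genes, whose enzymes join auxin to amino acids. GH3.2 (AT4G37390) had an IonPGM peak at percentile 98.2 and an Illumina peak at 99.3, across the lower end of the gene, at place 19 among all pairs. GH3.6 (DFL1) had percentiles of 87.0 and 78.4, GH3.5 (WES1) 64.9 and 94.8, and GH3.3 63.7 and 48.95. The pairs at GH3.5 and GH3.6 lay 926 to 994 bp from the gene, close to the limit of the window, and their peak centres lay beyond it. With peak centres, overlapping peaks were counted at 8 of the other auxin genes (15.4%) in place of 10, beside 6.19% of all genes. Only the GH3.2 pair touched its gene, so the 4 calls hold for this window. GH3.2 therefore stood above every Aux/IAA and ARF gene in both lists, where their highest peaks were at 93.3 (IAA4, IonPGM) and 78.2 (ARF6, Illumina).

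The receptor, SAUR and transport groups each held 2 genes with overlapping peaks, beside 6.56% of all protein-coding genes. Of 6 receptor genes they were at TIR1 and AFB5 (33.3%). TIR1 had percentiles of 76.2 (IonPGM) and 92.1 (Illumina), and AFB5 50.9 and 30.2. The AFB5 overlap was 36.6% of the Illumina peak, which lay 190 bp from PPOX. AFB5 was thus not called in common when at least 50% of both peaks had to overlap. Of 14 transport genes 2 had overlapping peaks (14.3%). PIN7, an efflux carrier, had 96.3 and 96.5, and LAX1, an influx carrier, 92.3 and 77.5. The PIN7 pair lay inside the gene, more than 1000 bp from either end. Of 9 SAUR genes, small auxin-induced genes of cell expansion, SAUR21 (40.5 and 24.2) and SAUR24 (22.0 and 61.7) had overlapping peaks (22.2%). The pairs at LAX1, SAUR21 and SAUR24 each also overlapped a non-coding gene. Of 14 synthesis genes, among them all 11 YUC genes, 0 had overlapping peaks. TAR2 alone had a peak, in the IonPGM list at percentile 19.4 (7.14% of the group, against 12.1% of all genes). With so few genes per group, differences between the groups were not tested.

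The limit of the window fell in a gap for the members. The farthest peaks inside it lay 664 bp (ARF11) and 594 bp (ARF6) from the gene, and the nearest outside it lay 1645, 1703 and 1705 bp from ARF2, where the first overlaps HSFB2A and the others overlap AT5G61997.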

How the data were processed

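Peaks of CCA1-FLAG ChIP-seq were deposited as 1 list per sequencer, with positions and a score per peak. The authors worked on TAIR10 with Bowtie 0.12.7, SAMtools 0.1.18 and MACS2, per the submitters' processing notes. How strict the peak calling was, whether a control was used and on what scale the deposited score lies is not given in the sources used here. Peaks were called per sample. Positions were read as 0-based and are printed 1-based. Ranks give tied scores their mean rank.

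Genes came from a RefSeq table on TAIR10.1, and all 43 members and 52 other auxin genes were matched by locus identifier. The table's gene coordinates are not printed, and it has neither strand nor exons. No genome sequence was used here, so the planned look at motifs and protein features was not made. Members and lists were chosen with earlier results of these data known. Every member with a peak is named with its values, and of the other auxin genes up to 4 per group with overlapping peaks. No test was made, since each sequencer has 1 library. In simulated data on 27444 genes, 67 of 67 genes given overlapping peaks inside the window were recovered. This checks the code alone and says nothing of calls on real peaks. Python 3.11.15, NumPy 2.4.6, pandas 2.3.3 and Matplotlib 3.10.9 were used.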

Additional observations from a re-analysis of the deposited data

How the results depend on the processing

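Other windows (0, 500 and 2000 bp), peak centres, peaks above percentile 50, stricter or looser sharing and, chosen after seeing the data, assignment of each peak to its nearest protein-coding gene were tried; of 60 recounts 46 stayed within 1.5 times the reported count. With the gene alone (0 bp) the Illumina count of ARF genes went from 5 to 2 and the shared count from 2 to 1 (ARF6), and the other auxin genes to 4 (IonPGM), 7 (Illumina) and 4 (shared), as all genes went to 6.35%, 6.31% and 2.96%, while IAA1, IAA3 and IAA4 kept their overlapping peaks. With 500 bp, and likewise with the nearest gene, the Illumina count of ARF genes was 3 (ARF2, ARF6 and ARF19), beside 10.2% and 9.18% of all genes. With peaks above percentile 50 all genes stood at 5.98% (IonPGM), 6.22% (Illumina) and 3.21% (shared). The Aux/IAA counts were then 2 (6.90%), 1 (3.45%) and 1 (3.45%, IAA4), so the Illumina share lay below that of all genes. The ARF counts were 2 (14.3%), 3 (21.4%) and 2 (14.3%, ARF2 and ARF6). The other auxin genes had 7 Illumina (13.5%) and 6 shared calls (11.5%). With overlap of at least 50% of both peaks IAA1 lost its shared call (2 Aux/IAA genes), and so did AFB5 (9 other auxin genes), beside 5.84% of all genes. With a smaller window, peaks above percentile 50, the nearest gene or 50% overlap, a count can only stay or fall. No paired analysis was possible because each sequencer has 1 library and no test was made; for the same reason no library was left out. Read depth is unknown and limits every gene without a peak.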

Other observations

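Some peaks lay beyond the window and were nearest to a member all the same. Between 1000 and 3000 bp from the 43 genes there were 14 peaks, at 3 Aux/IAA and 5 ARF genes. In this reach peaks of both lists overlapped near ARF2, ARF3, ARF6 and IAA33. The share of all protein-coding genes with a peak in this reach was not counted, so these counts have no background. The peaks near IAA32, IAA33, ARF2 and ARF16 overlapped another protein-coding gene. At ARF6 the second pair, at chromosome 1: 10693019 to 10693375 (IonPGM, percentile 94.0) and 10693016 to 10693327 (Illumina, percentile 73.6), lay 2030 and 2027 bp beyond the end opposite to the pair in the window. ARF6 was the nearest protein-coding gene, so overlapping peaks lay on both sides of this gene, and the IonPGM peak outside the window ranked above the one inside it.

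ARF3, without a peak in its window, had a pair 2266 and 2265 bp away at chromosome 2: 14331245 to 14331459 (IonPGM, percentile 57.4) and 14331244 to 14331478 (Illumina, percentile 43.8), and it was the nearest protein-coding gene. IAA14 was the nearest protein-coding gene to an unpaired Illumina peak 1895 bp away at percentile 25.1. The pair near IAA33 overlapped AT5G57410, and the Illumina peak at percentile 88.4 that lay 2036 bp from ARF18 was 187 bp from AT3G61840.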
